A study of Mus musculus with 12 samples.

Results

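Genes of fatty acid synthesis, storage and oxidation were followed in primary mouse hepatic stellate cells, the liver pericytes that keep vitamin A in lipid droplets and, once activated, become myofibroblasts that make collagen. The members were 40 genes, chosen by symbol for their known role: 11 of synthesis, 12 of lipid droplets and triglyceride turnover, 6 of uptake and activation, 7 of oxidation and 4 regulators. Of these, 37 were among the 12081 genes of the deposited table. The lipid droplet coat gene Plin4 and the regulator genes Ppara and Ppargc1a were not analysed here. There were 4 groups of 3 libraries, all from mice with the Hk2 fl/fl genotype, in which Cre can remove the gene of the glycolytic enzyme hexokinase 2. LAC cells received an adenovirus for Cre fused to eGFP and were given 10 mM lactate for 24 h. KO cells received the same virus without lactate. The virus, not a cell-type promoter, decided which cells received Cre. ACT cells received an adenovirus for eGFP alone. LAC, KO and ACT cells were cultured for 6 days. QS cells were freshly isolated, with no virus and no culture, and served as quiescent cells. The sex, age and number of the animals were not given in the sources used here, nor was it stated whether a group's 3 libraries came from different mice or dishes. Each p-value therefore reflects library-to-library spread, which may be technical. Levels are the deposited library-size normalised read counts, written here as CPM, and are given per library or as mean ± SD (n = 3 libraries). Each fold change was taken after adding 1 to the CPM and taking log2, so that it is too small for genes of low level. A gene was called when its limma p-value, adjusted over all 12081 genes by Benjamini-Hochberg, was under 0.05.

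Fatty acids are built in the cytosol from acetyl-CoA, then lengthened and desaturated, joined to glycerol and kept as triglyceride in droplets whose surface carries perilipins. Lipases release them again, and mitochondria burn them after carnitine carries them across the membranes. Quiescent stellate cells are known for their lipid droplets, which are lost as the cells become myofibroblasts. Macrophages, sinusoidal endothelial cells and hepatocytes of the same liver also use these genes.

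Estimated depth ran from 4351112 to 14002306 reads in the listed genes. At that depth 3 reads were a level of 0.212 to 0.720 CPM. Hk2, the gene removed by Cre, had 18.7, 19.6 and 19.7 CPM in LAC and 10.7, 13.7 and 11.9 CPM in KO, against 181, 182 and 181 CPM in ACT and 73.3, 66.7 and 73.5 CPM in QS. All KO and LAC libraries lay below all ACT and QS libraries (limma KO vs ACT log2 fold change -3.80, adjusted p = 2.25e-14). All 18 stellate cell markers that were looked up were listed, with a summed level of 8279 to 8669 CPM in LAC, 4852 to 5121 CPM in KO, 15428 to 15476 CPM in ACT and 5443 to 5584 CPM in QS. Markers of other liver cells differed more between the groups than within them. The 22 macrophage markers summed to 3931 to 3974 CPM in LAC, 556 to 577 CPM in KO, 15872 to 16216 CPM in ACT and 6924 to 7056 CPM in QS. The 22 endothelial markers summed to 5536 to 5736 CPM, 10014 to 11032 CPM, 739 to 756 CPM and 19423 to 19814 CPM in the same order of groups. The 24 listed hepatocyte markers summed to 120.2 to 129 CPM, 447 to 467 CPM, 369 to 379.8 CPM and 2979.7 to 3025 CPM, with 9 of them at 0 in all LAC libraries, and 11 mesothelial and cholangiocyte markers to 1121 to 1139.8 CPM, 192 to 195 CPM, 5214 to 5398 CPM and 154 to 167 CPM. Of 15 lymphocyte and neutrophil markers 1 was listed, and none of 7 adipocyte markers. In KO vs ACT, 20 of 22 macrophage markers were called lower, and 21 of 22 endothelial and 22 of 24 hepatocyte markers higher. In LAC vs KO, 17 macrophage markers were called higher, and 20 endothelial and 23 hepatocyte markers lower. Of the 18 stellate markers, 9 were called higher and 9 lower in ACT vs QS. In KO vs ACT the stellate counts were 9 and 7, and in LAC vs KO 10 and 3. In ACT vs QS, 11 macrophage markers were called higher and 7 lower, and 6 and 3 mesothelial and cholangiocyte markers. The order of a summed level therefore need not hold for each marker of its list. In these bulk libraries fewer cells of a type and less RNA per cell cannot be told apart. For genes that are set beside no marker list below, the part of other cell types was not tested either.

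**Figure D1:**
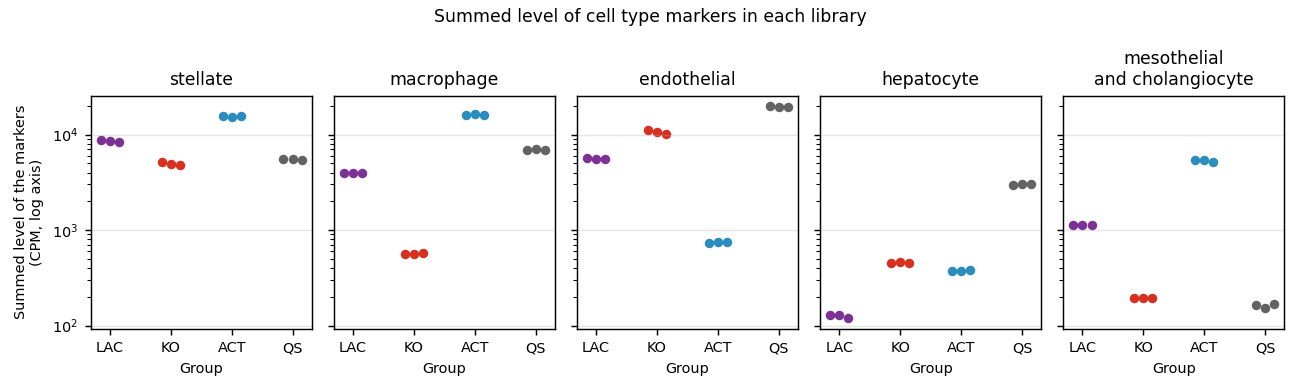
Summed level of the listed markers of 5 cell types (CPM, log axis) in each library of LAC, KO, ACT and QS; each point is a library. Macrophage markers were lowest in KO and highest in ACT, and endothelial markers lowest in ACT and highest in QS.

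Most members changed in each comparison, in both directions. Between ACT and QS, 19 of the 37 members were called higher and 11 lower, where 38.0% and 35.5% of all 12081 genes were, and the median log2 fold change of the members was 0.24 against 0.03 over all genes. Between KO and ACT, 14 members were called higher and 13 lower, against 36.0% and 26.3% of all genes, with a median of 0.05 against 0.07. Between LAC and KO, 8 members were called higher and 13 lower, against 20.0% and 21.0% of all genes, with a median of -0.08 against -0.02. Between LAC and ACT, 10 were called higher and 14 lower, against 27.8% and 21.7% of all genes, with a median of -0.03 against 0.03. The share of members called in either direction was 81.1% for ACT vs QS, 73.0% for KO vs ACT, 56.8% for LAC vs KO and 64.9% for LAC vs ACT, where 73.5%, 62.4%, 41.0% and 49.5% of all genes were called. Changes of at least 2-fold on that scale were fewer. They numbered 5 higher and 6 lower for ACT vs QS (16.3% and 14.9% of all genes), 4 and 2 for KO vs ACT (9.17% and 9.78%), 0 and 2 for LAC vs KO (5.12% and 2.19%) and 2 and 2 for LAC vs ACT (6.46% and 6.15%). Comparisons that share the ACT or the KO libraries are not independent of each other, so their values are set side by side only.

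**Figure D2:**
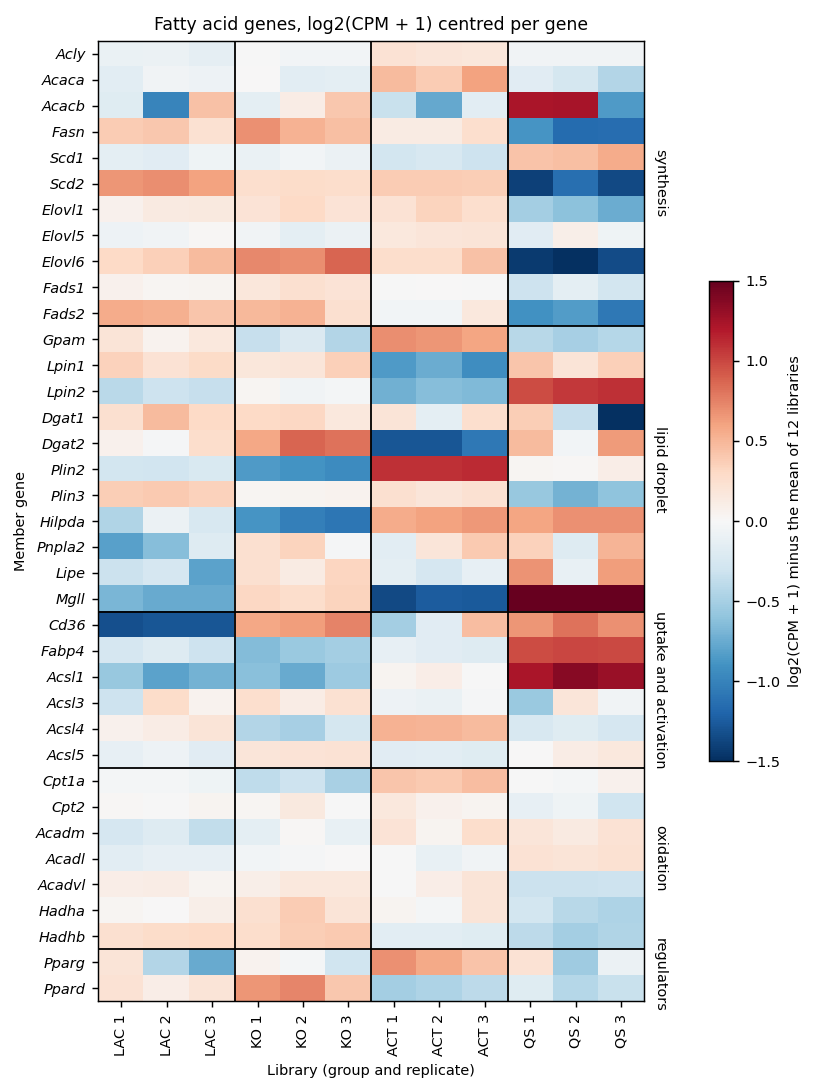
Level of the 37 listed members in each of the 12 libraries, as log2(CPM + 1) minus the gene's mean over all libraries; red is above and blue below that mean, with colours saturated at 1.5. Libraries of a group look alike for most members, with Acacb, Dgat1 and Pparg among the exceptions, and members of a class do not move as a block.

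**Figure D3:**
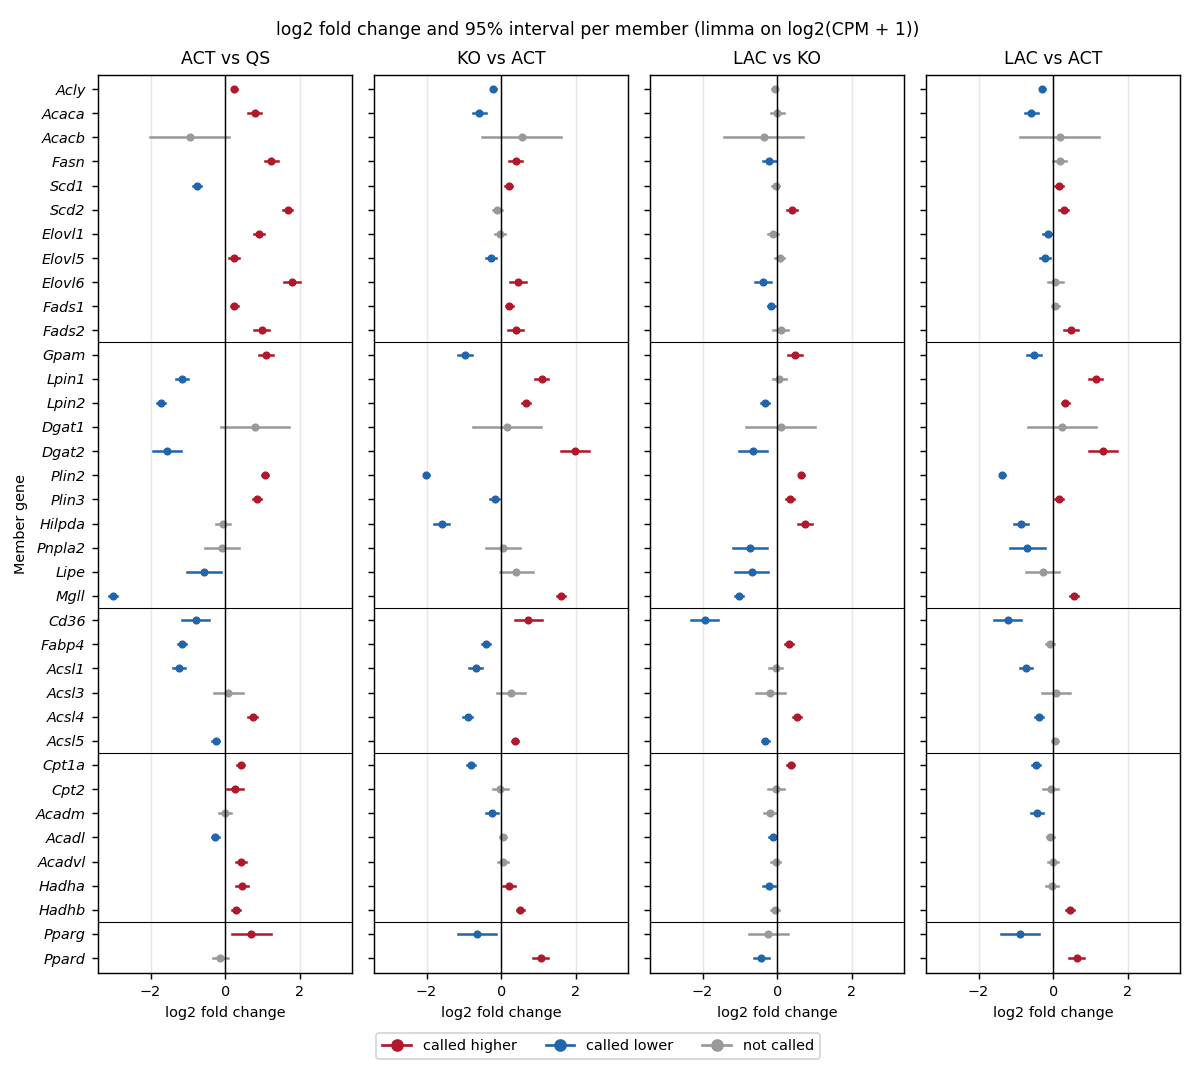
log2 fold change (point) and 95% interval (line) of each member in the 4 comparisons, the first-named group relative to the second, with called members in red (higher) or blue (lower). The widest intervals are those of Acacb and Dgat1, and the largest fold change is the -3.00 of Mgll in ACT vs QS.

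Synthesis members were called higher in ACT than in QS, except Scd1, which was lower, and Acacb, which was not called. Of 11 synthesis members 9 were called higher and 1 lower in ACT vs QS, with a median log2 fold change of 0.78 against 0.03 over all genes. In either direction that was 90.9% of the class, where 73.5% of all genes were called. Fasn, the fatty acid synthase that makes palmitate, had 152, 152 and 165 CPM in ACT, against 75.0, 61.9 and 62.4 CPM in QS. Every ACT library was thus above every QS library (log2 fold change 1.22, SE 0.080, adjusted p = 4.89e-09). Elovl6, which lengthens palmitate to stearate, had 28.4, 28.3 and 32.0 CPM in ACT, against 8.04, 6.97 and 8.64 CPM in QS (log2 fold change 1.78, SE 0.096, adjusted p = 5.57e-10). The largest fold changes of the class after that were those of Scd2 (1.67) and Fads2 (0.97). Elovl1, an elongase of very long chains, rose by 0.89 and Acaca, the acetyl-CoA carboxylase that makes malonyl-CoA for the synthase, by 0.78. Acly, which supplies cytosolic acetyl-CoA from citrate, rose by 0.24, and the polyunsaturated fatty acid genes Fads1 and Elovl5 by 0.24 and 0.23 on the log2 scale. Of the wider list of 32 synthesis genes, 26 were listed, of which 13 were called higher and 3 lower in ACT vs QS. Together these were 61.5% of the listed genes, below the 73.5% of all genes. Me1, the malic enzyme that supplies NADPH for synthesis, averaged 102 ± 3.20 CPM in ACT and 51.8 ± 1.42 CPM in QS (0.97), and Hacd4, a dehydratase of chain elongation, 123 ± 2.38 CPM and 23.0 ± 2.36 CPM (2.37). The largest change of that list went the other way. Thrsp, a lipogenic gene of liver and fat, had at most 1 read in a LAC library, 9.24, 9.89 and 11.1 CPM in KO, at most 2 reads in an ACT library and 46.2, 47.5 and 46.9 CPM in QS. Nr1h3, which encodes the sterol receptor LXR alpha, was also called lower and averaged 10.5 ± 0.593 CPM in ACT and 52.1 ± 7.30 CPM in QS (-2.21). Thrsp was highest in QS and then KO, as the summed hepatocyte and endothelial markers were; their part was not tested.

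After Hk2 deletion, Fasn and Elovl6 were higher still, while Acly and Acaca were lower. Fasn had 224, 200.3 and 189.6 CPM in KO, and all 3 libraries exceeded those of ACT (log2 fold change 0.39, SE 0.080, adjusted p = 0.000797). Elovl6 had 39.2, 38.7 and 43.7 CPM in KO, again with no overlap with ACT (log2 fold change 0.44, SE 0.096, adjusted p = 0.00118). The desaturase gene Fads2 had 55.1, 56.2 and 46.4 CPM in KO, against 37.8, 38.0 and 43.8 CPM in ACT (limma log2 fold change 0.39, SE 0.092, adjusted p = 0.0022), and Fads1 rose by 0.21. In the other direction Acaca averaged 65.8 ± 4.39 CPM in KO and 99.5 ± 7.72 CPM in ACT (limma log2 fold change -0.59, SE 0.077, adjusted p = 1.32e-05), Acly averaged 208 ± 2.90 CPM and 242 ± 3.47 CPM (-0.22) and Elovl5 83.5 ± 2.53 CPM and 101 ± 1.47 CPM (-0.28). Elovl1 averaged 96.9 ± 3.85 CPM in KO and 99.2 ± 3.96 CPM in ACT and was not called (95% interval of the log2 fold change -0.16 to 0.10). Acaca was highest in ACT and lowest in QS, as the summed mesothelial and cholangiocyte markers were, while its KO and LAC libraries overlapped. By group means the order of Elovl5 was that of the summed stellate markers, although LAC overlapped QS and QS overlapped KO. The part of these cell types was not tested. Transcripts of Acaca shared 33.4% of their 31-base words with other genes, mostly the annotated gene Gm5182, and those of Elovl6 6.41%, so the level of Acaca in particular is uncertain. In all, 5 synthesis members were called higher and 3 lower in KO vs ACT, with a median of 0.20, and of the 26 wider synthesis genes 5 were higher and 12 lower. Called shares were 72.7% of the members and 65.4% of the wider genes, against 62.4% of all genes. The median of the wider genes was -0.12, and 2 were called at least 2-fold higher and 3 at least 2-fold lower. Hacd4 had 46.6, 50.0 and 49.2 CPM in KO, against 122, 121 and 125 CPM in ACT. Nr1h3 had 1.98, 2.80 and 2.72 CPM in KO, against 10.4, 9.88 and 11.1 CPM in ACT. Thrsp, given above, went the other way. Me1 was among the wider genes called higher, by less than 2-fold. It had 144, 143 and 159.9 CPM in KO, against 105, 99.1 and 102 CPM in ACT (0.54, adjusted p = 4.88e-07).

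With lactate, Fasn had 181, 184 and 162 CPM in LAC, between the KO and the ACT libraries except that its lowest library lay below the highest ACT library. Its fall from the KO level was small (log2 fold change -0.22, SE 0.080, adjusted p = 0.0444) and lost its call when most single libraries were left out. Without KO replicate 1 it was -0.15, without KO replicate 2 -0.23, and without LAC replicates 1, 2 and 3 in turn -0.24, -0.25 and -0.16. Elovl6 had 29.1, 30.2 and 32.9 CPM in LAC, below every KO library (log2 fold change -0.39, SE 0.096, adjusted p = 0.00564) and overlapping ACT (95% interval of the log2 fold change LAC vs ACT -0.15 to 0.26). Fads1 fell by 0.16, and Fads2, at 57.9, 56.7 and 52.3 CPM in LAC, was not called (-0.11 to 0.28). Acaca averaged 65.8 ± 2.66 CPM in LAC and 65.8 ± 4.39 CPM in KO (-0.16 to 0.17) and was below ACT in both (-0.59 for LAC vs ACT, adjusted p = 2.02e-05). Acly averaged 197 ± 3.08 CPM in LAC and 208 ± 2.90 CPM in KO and was not called in LAC vs KO (-0.14 to -0.01), but was lower when libraries were scaled to equal totals, medians or quantiles (adjusted p = 0.0275, 0.0321 and 0.0453). Only Scd2 was called higher in LAC than in KO among the 11 members, and 3 were called lower. Against ACT, 3 synthesis members were called higher and 4 lower, with a median of 0.06. Called shares were 36.4% for LAC vs KO and 63.6% for LAC vs ACT, against 41.0% and 49.5% of all genes.

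The pair of stearoyl-CoA desaturase genes, whose enzymes make monounsaturated from saturated fatty acids, went opposite ways in ACT vs QS. Scd1, the isoform that is abundant in hepatocytes, had 93.4, 95.8 and 91.0 CPM in ACT, against 153, 155 and 168 CPM in QS (log2 fold change -0.76, SE 0.047, adjusted p = 2.48e-09). Scd2 had 214, 214 and 212 CPM in ACT, against 61.8, 74.5 and 63.7 CPM in QS (log2 fold change 1.67, SE 0.057, adjusted p = 3.15e-12). Within each library the log2 ratio of Scd1 to Scd2 was thus -1.19, -1.15 and -1.21 in ACT and 1.30, 1.05 and 1.38 in QS, a difference of -2.43. Permuting libraries exactly and two-sided, for 8 such ratios in 4 comparisons, gave p = 0.10 at best, the smallest that 3 against 3 libraries allow (adjusted 0.11 over the 32 tests). In KO, Scd1 had 105, 110.1 and 106 CPM (log2 fold change 0.20, SE 0.047, adjusted p = 0.00227 against ACT) and Scd2 195, 199.9 and 197 CPM, which was not called at 0.05 in that comparison (-0.11, adjusted p = 0.103). It was called with quantile scaling, with weights per library and when only KO and ACT were fitted (adjusted p = 0.0246, 0.0497 and 0.0182). In LAC, Scd2 had 261, 267 and 251 CPM, above every library of the other groups (log2 fold change 0.39, SE 0.057, adjusted p = 8.2e-05 against KO), while Scd1 had 102, 101 and 108 CPM and overlapped KO. Endothelial and hepatocyte markers were highest in QS, as Scd1 was, and the order of the groups by Scd1 (QS, KO, LAC, ACT) was that of the summed endothelial markers; their part in the result was not tested. Transcripts of Scd1 and Scd2 shared 8.14% and 6.81% of their 31-base words with other genes, mostly with Scd3, so some reads could be assigned either way.

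Acacb, whose carboxylase sits at mitochondria and makes the malonyl-CoA that blocks fatty acid import, had the least certain values. It had 2.30, 0.874 and 4.05 CPM in LAC, 2.36, 3.05 and 3.95 CPM in KO, 1.96, 1.20 and 2.35 CPM in ACT and 7.75, 7.77 and 1.08 CPM in QS. The order of its group means was that of the summed endothelial markers, whose part was not tested. QS replicate 3, at about 5.15 reads, lay far below the other QS libraries. No comparison was called for it, and ACT vs QS gave -0.96 (adjusted p = 0.0925). Without QS replicate 3 the same comparison gave -1.65 with an adjusted p of 0.000932, and with all libraries it was called with quantile scaling or a pseudocount of 5 (adjusted p = 0.0274 and 0.0484).

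The promoter of Fasn is shown because its gene was called higher in both ACT vs QS and KO vs ACT. It is the 250 bases before the RefSeq start, chr11:120824548-120824797 of GRCm38.p6 on the minus strand, with CCAAT (the NF-Y motif, searched on both strands) in capitals.
Fasn: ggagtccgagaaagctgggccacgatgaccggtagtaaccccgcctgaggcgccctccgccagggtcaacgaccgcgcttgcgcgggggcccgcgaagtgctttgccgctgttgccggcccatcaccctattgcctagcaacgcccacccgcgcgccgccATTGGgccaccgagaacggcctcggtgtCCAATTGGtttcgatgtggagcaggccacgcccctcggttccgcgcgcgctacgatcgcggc
It held 3 matches to CCAAT, of which a pair overlapped, where 33.8% of the 32851 RefSeq promoter windows of this length held at least 1 match. The letters TCACNCCAC, one form of the element read by the sterol factor SREBP, had no match in it and matched 1.05% of all windows. The 34 members with a promoter in that table had 44 windows. Of these windows 17, from 16 members, held a CCAAT match and 1, of Acsl1, the SREBP letters. Srebf1, which encodes the factor for fatty acid synthesis genes and was looked up after values were seen, averaged 28.0 ± 3.84 CPM in LAC, 28.0 ± 3.35 CPM in KO, 26.5 ± 1.31 CPM in ACT and 24.8 ± 5.53 CPM in QS, and no comparison was called. The 95% interval of its log2 fold change was -0.24 to 0.37 for KO vs ACT. A match or its lack in this window says nothing of what binds there.

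**Figure D4:**
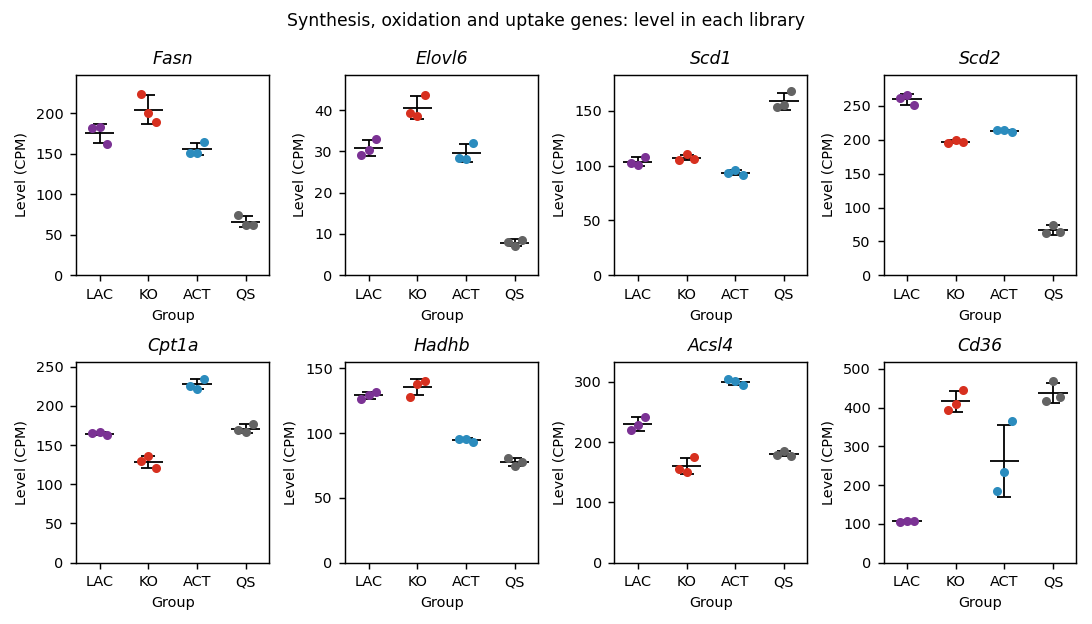
Level (CPM, linear axis from 0) of 8 members in each library of LAC, KO, ACT and QS; points are libraries, with the mean and SD in black. Fasn and Elovl6 are highest in KO, Scd1 and Scd2 differ in opposite directions between ACT and QS, Cpt1a and Acsl4 are highest in ACT, and the ACT libraries of Cd36 spread from 186 to 364 CPM.

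Among genes of the lipid droplet, Plin2, Plin3 and Gpam were called higher in ACT than in QS and lower in KO than in ACT. Dgat2, Lpin1, Lpin2 and Mgll were called the other way in both. Plin2, which encodes the perilipin that coats droplets in most cells other than adipocytes, had 1236, 1236 and 1257 CPM in ACT, against 587, 586 and 617 CPM in QS (log2 fold change 1.06, SE 0.033, adjusted p = 1.1e-12). It fell to 318, 309.5 and 299.8 CPM in KO (log2 fold change -2.00, SE 0.033, adjusted p = 2.16e-15 against ACT), below QS as well. It was 477, 474 and 493 CPM in LAC (log2 fold change 0.64, SE 0.033, adjusted p = 2.18e-09 against KO and -1.37 against ACT). No library of any group overlapped another group's. Plin3, a perilipin of the cytosol and young droplets, moved within a narrower range, with 76.6 ± 1.38 CPM in LAC, 60.6 ± 0.531 CPM in KO, 69.0 ± 1.48 CPM in ACT and 38.0 ± 1.91 CPM in QS. It rose by 0.84 in ACT vs QS, fell by 0.18 in KO vs ACT and rose by 0.33 in LAC vs KO. The log2 ratio of Plin2 to Plin3 was 2.39, 2.33 and 2.28 in KO and 4.12, 4.18 and 4.16 in ACT (difference -1.82, exact permutation p = 0.10). The order of the groups by Plin2 (ACT, QS, LAC, KO) was that of the summed macrophage markers, given above; their part in the result was not tested.

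Hilpda, a hypoxia-inducible gene whose small protein inhibits the triglyceride lipase encoded by Pnpla2, was called lower in KO than in ACT, while ACT vs QS was not called. It had 26.6, 34.5 and 30.9 CPM in LAC, 19.4, 17.5 and 16.8 CPM in KO, 54.4, 56.1 and 58.1 CPM in ACT and 56.0, 59.7 and 59.9 CPM in QS. ACT and QS overlapped (95% interval of the log2 fold change -0.25 to 0.14), KO was below both, and LAC lay between KO and ACT. The log2 fold change was -1.60 for KO vs ACT (SE 0.089, adjusted p = 1.35e-09) and 0.74 for LAC vs KO (adjusted p = 1.47e-05). Gpam, a glycerol phosphate acyltransferase that starts triglyceride synthesis, averaged 23.3 ± 1.13 CPM in LAC, 16.7 ± 1.38 CPM in KO, 33.7 ± 1.20 CPM in ACT and 15.2 ± 0.516 CPM in QS. KO and QS overlapped for Gpam, and the other groups were apart (1.10 for ACT vs QS, -0.98 for KO vs ACT, 0.46 for LAC vs KO). Its order of the groups was that of the summed mesothelial and cholangiocyte markers, whose part was not tested.

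The promoters of Plin2 and Hilpda are shown because these members had the largest falls in KO vs ACT of all 37. Both run for 250 bases to the start of the RefSeq transcript on GRCm38.p6: chr4:86670060-86670309 on the minus strand for Plin2 and chr6:29272376-29272625 on the plus strand, the second of 2 listed starts, for Hilpda. The window of the other Hilpda start, chr6:29272238-29272487, held none of the motifs searched and is not printed. Capitals mark CCAAT in Plin2 and ACGTG, the core letters bound by hypoxia-inducible factors, in Hilpda.
Plin2: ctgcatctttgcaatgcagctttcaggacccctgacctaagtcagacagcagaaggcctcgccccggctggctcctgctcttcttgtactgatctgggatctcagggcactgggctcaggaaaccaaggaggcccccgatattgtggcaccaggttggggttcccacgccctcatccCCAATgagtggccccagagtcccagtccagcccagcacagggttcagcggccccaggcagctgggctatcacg
Hilpda: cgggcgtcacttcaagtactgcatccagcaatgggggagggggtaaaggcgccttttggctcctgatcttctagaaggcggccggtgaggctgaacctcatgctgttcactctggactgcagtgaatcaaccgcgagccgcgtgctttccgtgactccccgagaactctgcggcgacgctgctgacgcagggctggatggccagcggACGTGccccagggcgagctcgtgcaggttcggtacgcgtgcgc
The letters ACGTG or their reverse complement occurred in 16.6% of all 32851 windows and in 12 of the 44 member windows, from 10 of the 34 members. The palindrome CACGTG, which holds them on both strands, occurred in 6.02% of all windows and in 4 member windows, from 4 members. The direct repeat AGGTCANAGGTCA (which PPAR factors read) occurred in 0.0335% of windows and in none of the members'. A single AGGTCA or its reverse complement occurred in 14.0% of all windows and in 12 member windows, from 11 members. The Plin2 window held such a match, 218 to 213 bases before the start, which is not in capitals. None of these letters shows that a factor binds.

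Dgat2, Lpin1, Lpin2 and Mgll were called lower in ACT than in QS and higher in KO than in ACT, whereas Dgat1 was called in neither comparison. Dgat2, which adds the last fatty acid to triglyceride, had 9.06, 8.50 and 10.6 CPM in LAC, 13.4, 16.6 and 16.0 CPM in KO, 2.97, 2.95 and 3.57 CPM in ACT and 12.4, 8.34 and 13.9 CPM in QS. ACT was below all other groups, KO and QS overlapped, and LAC overlapped QS. Its log2 fold change was -1.57 for ACT vs QS (adjusted p = 1.62e-06), 1.97 for KO vs ACT (SE 0.17, adjusted p = 2.25e-07) and -0.66 for LAC vs KO (adjusted p = 0.00835). At its low level these values depended on the pseudocount, and with 5 in place of 1 the first was -1.01. Dgat1, which does the same step, averaged 9.96 ± 0.961 CPM in LAC, 9.32 ± 0.601 CPM in KO and 8.37 ± 1.35 CPM in ACT, and QS libraries ranged from 1.04 to 10.2 CPM. No comparison of Dgat1 was called (ACT vs QS 0.79, adjusted p = 0.108), although ACT vs QS was (1.32, adjusted p = 0.00533) without QS replicate 1.

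Lpin1 and Lpin2 encode phosphatidate phosphatases, and both were lower in ACT than in QS. Lpin1 averaged 54.1 ± 2.41 CPM in LAC, 52.2 ± 3.92 CPM in KO, 24.2 ± 1.72 CPM in ACT and 55.5 ± 4.34 CPM in QS, with ACT below all other libraries and the other 3 groups overlapping their neighbours (-1.16 for ACT vs QS, 1.08 for KO vs ACT). Lactate left it uncalled against KO (95% interval -0.12 to 0.22). Lpin2 had 72.7, 77.9 and 76.1 CPM in LAC, 99.0, 93.6 and 94.9 CPM in KO, 58.4, 61.8 and 60.5 CPM in ACT and 191, 203 and 207 CPM in QS. Its groups were all apart, with log2 fold changes of -1.72 for ACT vs QS, 0.66 for KO vs ACT and -0.34 for LAC vs KO. Mgll, which splits monoacylglycerols, the last step of triglyceride breakdown, and also degrades an endocannabinoid, had 44.2, 42.0 and 42.1 CPM in LAC, 89.4, 86.4 and 90.4 CPM in KO, 27.3, 29.7 and 29.4 CPM in ACT and 243, 232 and 238 CPM in QS. This was the largest range of any member, and no groups overlapped: -3.00 for ACT vs QS (SE 0.049), 1.59 for KO vs ACT and -1.04 for LAC vs KO (adjusted p = 1.03e-15, 1.99e-12 and 8.87e-10). Lpin2 and Mgll had the same order of groups as the summed endothelial markers (QS, KO, LAC, ACT); the part of endothelial RNA in these results was not tested.

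The lipases that open triglyceride were called lower in LAC than in KO, on calls that depended on single libraries. Pnpla2, the adipose triglyceride lipase gene, averaged 7.21 ± 1.88 CPM in LAC, 12.5 ± 1.68 CPM in KO, 12.2 ± 2.48 CPM in ACT and 13.1 ± 3.33 CPM in QS. It was called lower in LAC than in KO (-0.74, adjusted p = 0.0127; -0.61 and not called without LAC replicate 1) and than in ACT (-0.69; not called without LAC replicate 1, at -0.56, or without ACT replicate 3, at -0.57). Lipe, the hormone-sensitive lipase gene, averaged 5.57 ± 1.28 CPM in LAC, 9.41 ± 0.701 CPM in KO, 6.87 ± 0.369 CPM in ACT and 11.1 ± 3.31 CPM in QS. It was called lower in ACT than in QS (-0.57, adjusted p = 0.0218), which was lost without QS replicate 1, QS replicate 3 or ACT replicate 2 (-0.44, -0.46 and -0.54). It was also called lower in LAC than in KO (-0.68, adjusted p = 0.017), which was lost without KO replicate 3 or LAC replicate 3 (-0.64 and -0.51). KO vs ACT was not called for Lipe, except when only KO and ACT were fitted (adjusted p = 0.0204). By group means both genes had the order of the summed hepatocyte markers (QS, KO, ACT, LAC), whose part was not tested. Neighbouring groups overlapped, however: QS and KO and also KO and ACT for Pnpla2, and QS and KO and also ACT and LAC for Lipe. Over the 11 listed droplet members, 3 were called higher and 5 lower in ACT vs QS, 4 and 4 in KO vs ACT, 4 and 5 in LAC vs KO and 5 and 4 in LAC vs ACT, with medians of -0.08, 0.15, 0.05 and 0.15. These were 72.7%, 72.7%, 81.8% and 81.8% of the class, against 73.5%, 62.4%, 41.0% and 49.5% of all genes.

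**Figure D5:**
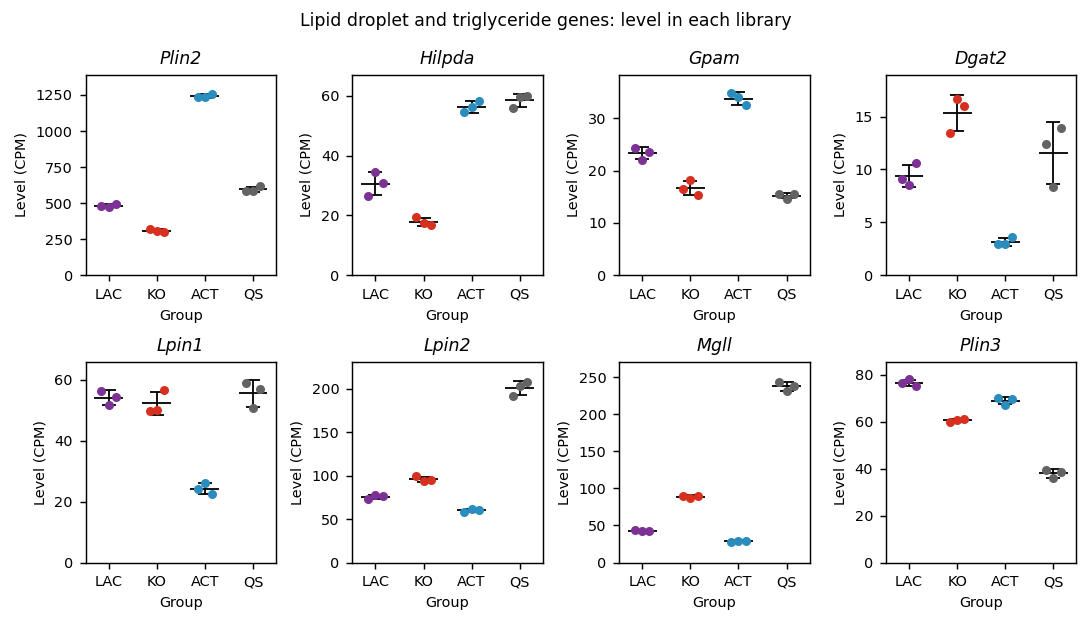
Level (CPM, linear axis from 0) of 8 lipid droplet and triglyceride genes in each library of LAC, KO, ACT and QS; points are libraries, with the mean and SD in black. Plin2 and Hilpda are lowest in KO, whereas Dgat2, Lpin1, Lpin2 and Mgll are lowest in ACT.

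Wider genes of storage changed in both directions. Of 30 such genes 21 were listed, and 9 were called higher and 6 lower in ACT vs QS, 11 and 5 in KO vs ACT and 4 and 7 in LAC vs KO. These were 71.4%, 76.2% and 52.4% of the list, against 73.5%, 62.4% and 41.0% of all genes. G0s2, whose protein inhibits the lipase encoded by Pnpla2, had the largest fold change of the list in ACT vs QS (-3.25), with 2.07 ± 0.5 CPM in LAC, 3.70 ± 0.905 CPM in KO, 0.546 ± 0.245 CPM in ACT and 13.6 ± 1.59 CPM in QS. Its order of groups by mean was that of the summed endothelial markers, whose part was not tested. Mogat2, a monoacylglycerol acyltransferase gene, had 13.3, 11.8 and 9.90 CPM in LAC, 13.9, 13.7 and 12.8 CPM in KO and 4.39, 4.59 and 4.15 CPM in ACT, and was listed at 0 in every QS library (1.43 for KO vs ACT). Lipa, the lysosomal acid lipase gene, averaged 576 ± 7.01 CPM in LAC, 256 ± 5.48 CPM in KO, 1445 ± 14.6 CPM in ACT and 393 ± 19.6 CPM in QS, and Soat1, which esterifies cholesterol, 226 ± 2.17 CPM, 117 ± 5.22 CPM, 503 ± 11.5 CPM and 197 ± 8.68 CPM in the same order of groups. Lipa fell by 2.49 and Soat1 by 2.10 in KO vs ACT, and both rose in LAC vs KO (1.17 and 0.95). The order of groups by Lipa and Soat1 (ACT, LAC, QS, KO) was that of the summed stellate markers, and the summed macrophage, mesothelial and cholangiocyte markers were also highest in ACT; their part was not tested. Lpin3, another phosphatidate phosphatase gene, averaged 46.4 ± 1.81 CPM in LAC, 61.1 ± 8.36 CPM in KO, 14.3 ± 0.683 CPM in ACT and 26.5 ± 1.96 CPM in QS (2.01 for KO vs ACT).

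Genes that bring fatty acids into the cell and tie them to coenzyme A gave no common direction. Cd36, a fatty acid translocase of endothelial cells, macrophages and other cells, had 105, 108 and 108 CPM in LAC, 395, 408 and 445 CPM in KO, 186, 235 and 364 CPM in ACT and 418, 468 and 427 CPM in QS. LAC was below every other library, and the ACT libraries spread far more widely than those of LAC. The log2 fold change was -0.80 for ACT vs QS (adjusted p = 0.000567), 0.72 for KO vs ACT (SE 0.16, adjusted p = 0.0016) and -1.95 for LAC vs KO (adjusted p = 4.09e-07), the last being the largest change of a member with lactate. Its order of groups was that of the summed hepatocyte markers, and endothelial markers were likewise higher in KO than in LAC; their part was not tested. Fabp4, a fatty acid carrier of adipocytes, macrophages and capillary endothelium, had 68.6, 71.4 and 65.6 CPM in LAC, 52.0, 55.2 and 57.2 CPM in KO, 75.1, 72.7 and 71.6 CPM in ACT and 162, 166 and 164 CPM in QS. Every QS library exceeded the rest (-1.15 for ACT vs QS), and the fold changes between cultured groups were smaller (-0.41 for KO vs ACT and 0.32 for LAC vs KO).

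The acyl-CoA synthetase genes each had a course of their own. Acsl1, the main form in liver and fat, had 28.9, 24.3 and 26.2 CPM in LAC, 27.6, 25.3 and 29.3 CPM in KO, 44.6, 46.7 and 43.1 CPM in ACT and 103, 113 and 107 CPM in QS. It fell by 1.25 in ACT vs QS and by 0.69 in KO vs ACT, and lactate left it uncalled against KO (95% interval -0.21 to 0.12). Acsl4, which prefers arachidonic acid, had 220.1, 228 and 242 CPM in LAC, 156, 149.6 and 175 CPM in KO, 304, 301 and 295 CPM in ACT and 179, 185 and 177 CPM in QS. None of its groups overlapped, and the log2 fold changes were 0.73 for ACT vs QS, -0.90 for KO vs ACT and 0.52 for LAC vs KO (adjusted p = 1.78e-08, 2.83e-09 and 3.13e-06). The order of groups by Acsl4 was that of the summed stellate markers (ACT, LAC, QS, KO), although single stellate markers went both ways. The summed macrophage markers also differed in the same direction in those comparisons. The part of either list was not tested. The log2 ratio of Acsl1 to Acsl4 was -2.74, -2.66 and -2.74 in ACT and -0.79, -0.70 and -0.72 in QS (difference -1.98, exact permutation p = 0.10).

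Acsl5, a synthetase of intestine and liver mitochondria, had 191, 197 and 185 CPM in LAC, 236, 239.7 and 241 CPM in KO, 185, 187 and 184 CPM in ACT and 209, 225 and 233 CPM in QS. KO exceeded all ACT and LAC libraries (0.37 for KO vs ACT and -0.32 for LAC vs KO), which overlapped each other. Acsl3, which works at nascent droplets, had 11.8, 18.1 and 15.5 CPM in LAC, 17.9, 16.1 and 17.5 CPM in KO, 14.1, 13.8 and 14.6 CPM in ACT and 9.72, 17.0 and 14.3 CPM in QS, and no comparison was called in the fit of all groups. In the fit of KO and ACT alone it was called higher in KO (adjusted p = 0.0409). The class had 1 member called higher and 4 lower in ACT vs QS, 2 and 3 in KO vs ACT, 2 and 2 in LAC vs KO and none and 3 in LAC vs ACT, with medians of -0.53, -0.08, -0.12 and -0.24. Called shares were 83.3%, 83.3%, 66.7% and 50.0%, against 73.5%, 62.4%, 41.0% and 49.5% of all genes.

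Of the wider uptake list, 16 of 24 genes were listed, and 12 were called higher and 3 lower in ACT vs QS. Together these were 93.8% of the listed genes, against 73.5% of all genes. Lpl, the lipoprotein lipase that frees fatty acids from circulating triglyceride, averaged 693 ± 12.3 CPM in LAC, 179.6 ± 9.17 CPM in KO, 2307 ± 58.9 CPM in ACT and 157 ± 2.57 CPM in QS. Its log2 fold change was 3.87 for ACT vs QS, -3.68 for KO vs ACT and 1.94 for LAC vs KO. Fabp7, a carrier best known from brain, averaged 20.4 ± 2.98 CPM in LAC, 1.79 ± 0.567 CPM in KO, 79.6 ± 4.62 CPM in ACT and 22.2 ± 2.51 CPM in QS. Gpihbp1, which anchors lipoprotein lipase on capillary endothelium, averaged 40.9 ± 0.678 CPM in LAC, 87.0 ± 8.78 CPM in KO, 1.33 ± 0.318 CPM in ACT and 198 ± 3.05 CPM in QS, and Fabp1, the carrier of hepatocytes, had 34.4, 38.2 and 36.6 CPM in KO and 214, 247 and 232 CPM in QS but at most 1 read in a LAC and 5 in an ACT library. Gpihbp1 and Fabp1 were highest in QS, then KO, as the endothelial and hepatocyte markers were. The order of groups by Lpl (ACT, LAC, KO, QS) was that of the summed mesothelial and cholangiocyte markers. By group means Fabp7 had the order of the summed macrophage markers (ACT, QS, LAC, KO), with QS and LAC close. Summed stellate and macrophage markers were, like Lpl and Fabp7, highest in ACT. The part of these cell types was not tested.

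No oxidation member reached a 2-fold change in any comparison, and Cpt1a had the largest change of the class. Cpt1a, whose product attaches fatty acids to carnitine for entry into mitochondria and sets the pace of oxidation, had 166, 166 and 162 CPM in LAC, 129, 136 and 121 CPM in KO, 225, 222 and 234 CPM in ACT and 169, 166 and 177 CPM in QS. No groups overlapped, although LAC and QS adjoined (0.41 for ACT vs QS, -0.82 for KO vs ACT and 0.35 for LAC vs KO, with SE 0.046 and adjusted p = 1.87e-06, 1.66e-09 and 3.18e-05). As with Plin2, its order of groups was that of the summed macrophage markers, whose part was not tested. Cpt2, which takes the carnitine off again inside, averaged 17.2 ± 0.319 CPM in LAC, 17.7 ± 1.10 CPM in KO, 18.1 ± 0.846 CPM in ACT and 15.1 ± 1.33 CPM in QS. It was called in ACT vs QS only (0.25, adjusted p = 0.0281), and that call was lost without QS replicate 3 (0.18), ACT replicate 1 (0.22) or ACT replicate 2 (0.27). The interval of Cpt2 in KO vs ACT was -0.24 to 0.17.

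The subunit genes of the mitochondrial trifunctional protein, which carries out the last steps on long chains, were both higher in ACT than in QS, and both were called higher in KO than in ACT, Hadha with less certainty. Hadhb, the beta subunit, had 126, 129.6 and 132 CPM in LAC, 128, 138 and 140.3 CPM in KO, 95.3, 95.7 and 93.5 CPM in ACT and 81.2, 74.5 and 77.5 CPM in QS. KO and LAC overlapped each other and lay above all ACT and QS libraries (log2 fold change 0.51, SE 0.047, adjusted p = 3.41e-07 for KO vs ACT). Hadha, the alpha subunit, had 55.9, 54.9 and 58.4 CPM in LAC, 64.7, 71.9 and 63.1 CPM in KO, 56.5, 53.9 and 62.9 CPM in ACT and 45.1, 40.7 and 39.6 CPM in QS. It was higher in ACT than in QS (0.46, adjusted p = 6.95e-05). It was called higher in KO than in ACT (0.20, adjusted p = 0.0279) and lower in LAC than in KO (-0.23, adjusted p = 0.0218). Its KO vs ACT call was lost without ACT replicate 1, ACT replicate 2 or KO replicate 2 (0.19, 0.16 and 0.15), and its LAC vs KO call without KO replicate 2, LAC replicate 1 or LAC replicate 2 (-0.18, -0.23 and -0.21). Of the 31-base words of Hadhb transcripts, 23.3% also occurred in other genes, mostly the annotated gene Gm13910, so its level is less certain than that of Hadha.

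Hadha and Hadhb lie head to head on chromosome 5, with 272 bases between their RefSeq starts, so that 228 bases belong to the upstream window of both. The sequence is shown because both genes read away from it in opposite directions. It is chr5:30155003-30155252 of GRCm38.p6 on the plus strand, 250 bases up to the start of Hadhb, with no match to the motifs above and so no capitals.
Hadhb: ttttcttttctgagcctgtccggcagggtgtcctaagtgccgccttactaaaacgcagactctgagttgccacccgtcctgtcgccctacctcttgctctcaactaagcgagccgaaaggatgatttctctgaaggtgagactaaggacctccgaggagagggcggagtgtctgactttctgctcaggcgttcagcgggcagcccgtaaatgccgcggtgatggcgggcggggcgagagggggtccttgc
The log2 fold change in KO vs ACT was 0.51 for Hadhb and 0.20 for Hadha.

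The acyl-CoA dehydrogenase genes, whose enzymes start each round of oxidation on chains of different length, moved in separate ways. Acadvl, for the longest chains, had 57.4, 58.0 and 55.1 CPM in LAC, 57.0, 59.6 and 59.7 CPM in KO, 53.0, 57.2 and 61.3 CPM in ACT and 42.5, 42.6 and 42.9 CPM in QS. It rose in ACT vs QS (0.41, adjusted p = 2.08e-05) and was called in no other comparison (95% interval -0.09 to 0.17 for KO vs ACT). Acadm, for medium chains, had 32.1, 33.6 and 29.6 CPM in LAC, 34.6, 39.0 and 35.6 CPM in KO, 44.3, 39.7 and 46.2 CPM in ACT and 43.8, 42.1 and 44.8 CPM in QS. It was called lower in KO than in ACT (-0.25, adjusted p = 0.0128), which was lost without ACT replicate 3 (-0.20) or KO replicate 1 (-0.21), and lower in LAC than in ACT (-0.44, adjusted p = 0.000282). LAC vs KO was not called for Acadm (-0.36 to -0.03), except with equal totals or medians (adjusted p = 0.0468 and 0.0463). Acadl, for long chains, averaged 88.0 ± 1.41 CPM in LAC, 95.9 ± 1.75 CPM in KO, 93.0 ± 3.58 CPM in ACT and 112 ± 1.47 CPM in QS, and fell in ACT vs QS (-0.27, or -0.12 with quantile scaling). Its call in LAC vs KO (-0.12, adjusted p = 0.0316) was lost on leaving out KO replicate 2 or 3 (-0.12 and -0.11) or any LAC library (-0.11, -0.13 and -0.13). Over the 7 oxidation members, 5 were called higher and 1 lower in ACT vs QS, 2 and 2 in KO vs ACT, 1 and 2 in LAC vs KO and 1 and 2 in LAC vs ACT, with medians of 0.28, 0.04, -0.07 and -0.07. These were 85.7%, 57.1%, 42.9% and 42.9% of the class, against 73.5%, 62.4%, 41.0% and 49.5% of all genes. By group means the order of Acadl was that of the summed hepatocyte markers, whose part was not tested, although its KO and ACT libraries overlapped.

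Of 36 wider oxidation genes 34 were listed, with 16 called higher and 9 lower in ACT vs QS, 10 and 11 in KO vs ACT, 5 and 7 in LAC vs KO and 6 and 12 in LAC vs ACT. These were 73.5%, 61.8%, 35.3% and 52.9% of the list, against 73.5%, 62.4%, 41.0% and 49.5% of all genes. Ucp2, an uncoupling protein gene that macrophages express, averaged 92.4 ± 3.95 CPM in LAC, 32.4 ± 2.51 CPM in KO, 402 ± 24.3 CPM in ACT and 216 ± 12.2 CPM in QS (-3.59 for KO vs ACT and 1.49 for LAC vs KO). Its order of groups was that of the summed macrophage markers, whose part in these changes was not tested. Pdk4, whose kinase holds back pyruvate so that fatty acids are burned, averaged 105 ± 2.19 CPM in LAC, 133 ± 5.21 CPM in KO, 39.5 ± 0.732 CPM in ACT and 85.7 ± 3.63 CPM in QS (1.39 for LAC vs ACT, adjusted p = 1.66e-11). Cpt1c, the form known from neurons, averaged 28.0 ± 3.48 CPM in LAC, 28.3 ± 5.73 CPM in KO, 18.9 ± 1.15 CPM in ACT and 1.38 ± 1.31 CPM in QS (3.25 for ACT vs QS). Over the list, log2 fold changes ran from -5.23 to 3.25 in ACT vs QS, -3.59 to 2.79 in KO vs ACT and -3.49 to 1.49 in LAC vs KO. In ACT vs QS, 6 were called at least 2-fold lower and 2 higher, where 14.9% and 16.3% of all genes were.

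Of the regulators, Ppard and Pparg differed in opposite directions after deletion. Both encode nuclear receptors that fatty acids activate; Ppard is broadly expressed, and Pparg is the adipocyte factor that is also tied to the quiescent state of stellate cells. Ppard had 42.0, 38.5 and 41.4 CPM in LAC, 57.7, 60.3 and 48.0 CPM in KO, 24.9, 25.9 and 27.2 CPM in ACT and 31.6, 26.6 and 28.2 CPM in QS. KO was above every other library, ACT and QS overlapped, and LAC lay between KO and the rest (log2 fold change 1.06, SE 0.091, adjusted p = 1.75e-07 for KO vs ACT and log2 fold change -0.43, SE 0.091, adjusted p = 0.00181 for LAC vs KO). Pparg had 7.22, 4.34 and 3.27 CPM in LAC, 6.47, 6.10 and 4.87 CPM in KO, 10.6, 9.71 and 8.72 CPM in ACT and 7.37, 3.97 and 5.80 CPM in QS. ACT was above all other groups, and the other 3 overlapped. It was called higher in ACT than in QS (0.70, adjusted p = 0.0175) and lower in KO than in ACT (-0.65, adjusted p = 0.0295) and in LAC than in ACT (-0.90, adjusted p = 0.00652). The first call was lost without QS replicate 2 (0.50) or ACT replicate 1 (0.64), and the second without ACT replicate 1, ACT replicate 2 or KO replicate 3 (-0.59, -0.65 and -0.55). The log2 ratio of Pparg to Ppard was -2.98, -3.11 and -3.06 in KO and -1.16, -1.33 and -1.54 in ACT (difference -1.71, exact permutation p = 0.10). Macrophages also express Pparg, and macrophage markers were highest in ACT; their part was not tested.

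Of 20 wider regulators 18 were listed, and 4 were called higher and 9 lower in ACT vs QS, 6 and 3 in KO vs ACT, 4 and 3 in LAC vs KO and 7 and 2 in LAC vs ACT. Called shares were 72.2%, 50.0%, 38.9% and 50.0%, against 73.5%, 62.4%, 41.0% and 49.5% of all genes. Cebpa, a factor of adipocytes, hepatocytes and myeloid cells, averaged 35.1 ± 0.563 CPM in LAC, 11.1 ± 1.59 CPM in KO, 71.8 ± 3.32 CPM in ACT and 57.2 ± 2.01 CPM in QS (-2.60 for KO vs ACT and 1.59 for LAC vs KO). Its order of groups was that of the summed macrophage markers, whose part was not tested. Nr1d1, a clock repressor of lipid genes, averaged 22.5 ± 1.51 CPM in LAC, 35.5 ± 2.53 CPM in KO, 14.8 ± 0.975 CPM in ACT and 157 ± 1.95 CPM in QS (-3.33 for ACT vs QS). The order of groups by Nr1d1 was that of the summed endothelial markers, whose part was not tested.

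Compared directly with ACT, LAC cells had called members in every class. The share called was 63.6% of synthesis, 81.8% of droplet, 50.0% of uptake and activation and 42.9% of oxidation members, against 49.5% of all genes. The largest changes were the lower Plin2 (-1.37, SE 0.033) and Cd36 (-1.22, SE 0.16) and the higher Dgat2 (1.32, SE 0.17) and Lpin1 (1.13, SE 0.079). Pparg (-0.90), Hilpda (-0.86) and Acsl1 (-0.74) were lower, and Ppard (0.62), Mgll (0.56) and Fads2 (0.47) higher. Not called were Fasn, Elovl6 and Fads1 of synthesis, Dgat1 and Lipe of the droplet list, Fabp4, Acsl3 and Acsl5 of uptake and activation, Cpt2, Acadl, Acadvl and Hadha of oxidation, and Acacb. Their intervals were narrow for Fads1 (-0.05 to 0.14) and Acsl5 (-0.04 to 0.13) and wide for Acacb (-0.88 to 1.23) and Dgat1 (-0.68 to 1.15). Small calls of this comparison depended on single libraries. Scd1 (0.15) was not called without ACT replicate 3 (0.13) or LAC replicate 3 (0.12). Plin3 (0.15) was not without ACT replicate 2 or 3 (0.13 and 0.16) or LAC replicate 1 or 2 (0.15 and 0.14). Elovl1 (-0.16, adjusted p = 0.0475) was not without any 1 of the 6 libraries, at -0.12 to -0.18. Fasn was called higher without LAC replicate 3 (0.23, adjusted p = 0.0497), with weights per library or when only these groups were fitted (adjusted p = 0.0266 and 0.0282). With quantile scaling Acadl and Fabp4 were called lower (adjusted p = 0.0181 and 0.0223) and Scd1 and Plin3 were not. LAC and KO cells both carried Cre and ACT cells did not, so LAC vs ACT holds deletion, Cre and lactate together, KO vs ACT deletion and Cre, and ACT vs QS virus, culture and time, which cannot be told apart here. The summed macrophage and endothelial markers also differed in each of these comparisons, and the part of those cells was not tested.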

How the data were processed

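RNA of mouse primary hepatic stellate cells, isolated by density gradient centrifugation, was sequenced in 12 poly(A) libraries made with a stranded kit, per the labels' protocols. The deposited table holds a signal for each of 12081 genes: read counts normalised to library size by the authors, per the file header and name (normalised CPM). Column totals of the deposited values ran from 959233 to 1047042, so a further factor per library is present. The submitters' processing notes name build mm10 and, with no role or order, kallisto 0.44.0, edgeR 3.8, cutadapt 1.18 and FastQC 0.11.8. Every listed gene reached 1 CPM in at least 3 libraries. Only 19.7% to 25.8% of positive values lay within 0.01 of a whole read, so reads were not recovered and no count test was run. Depth was taken from the value of a single read, the lowest value shared by at least 5 genes. Within each group all library pairs varied beyond sampling noise (chi-square per gene 2.31 to 4.59) and were kept apart.

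limma 3.58.1 in R 4.3.3 was fitted to log2(CPM + 1) with 4 group means over all 12 libraries (8 residual degrees of freedom), empirical Bayes moderation with an intensity trend and Benjamini-Hochberg adjustment over all genes within each comparison; its code was tested on simulated data. Ratios of 8 pairs of members doing the same step were compared by exact permutation (scipy 1.17.1). Values in each library are given for the up to 5 members per class with the widest range of group means and for 10 members by name; wider genes are taken from the up to 3 called per list and comparison with the largest change and at least 5 CPM, except where said. Members and lists were chosen with earlier results of these data known. Promoters are from RefSeq, build GRCm38.p6, and shared words were counted in GENCODE M21 transcripts. Alternatives were other pseudocounts, a filter, scalings, a replicate block, fewer groups, moderation, weights, thresholds and leaving out each library.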

Additional observations from a re-analysis of the deposited data

How the results depend on the processing

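Over the member fold changes, no called value changed sign under any alternative. In ACT vs QS 27 of the 30 called members, in KO vs ACT 24 of 27, in LAC vs KO 16 of 21 and in LAC vs ACT 20 of 24 were called in the same direction under every alternative other than a stricter threshold. Requiring at least 2-fold left 5 members higher and 6 lower in ACT vs QS, 4 and 2 in KO vs ACT, 0 and 2 in LAC vs KO and 2 and 2 in LAC vs ACT, and of the 115 listed wider genes 23 and 18, 17 and 14, 7 and 5, and 7 and 10. Of all genes it left 16.3% and 14.9%, 9.17% and 9.78%, 5.12% and 2.19%, and 6.46% and 6.15%. Under this 2-fold rule the Hk2 change in LAC vs KO (0.64) was not called. At an adjusted p of 0.01, 7 members were lower in LAC vs KO, and 14 wider genes were higher and 15 lower. These follow from the stricter rule. Leaving out each library gave 17 to 20 members higher and 10 to 11 lower in ACT vs QS, 13 to 14 and 12 to 13 in KO vs ACT, 8 to 8 and 9 to 12 in LAC vs KO, and 8 to 10 and 12 to 13 in LAC vs ACT. With the replicate number as a block, Elovl1 in LAC vs ACT was no longer called (adjusted p = 0.0508) and no other member call changed. The numbers did not pair the libraries: deviations of 18 same-numbered pairs correlated at -0.04 to 0.09, and 13 of 36 best matches were to the same number. The LAC minus KO difference in the log2 ratio of Acacb to Acaca ranged from -0.70 to 0.03 and that of Pparg to Ppard from -0.05 to 0.41 with libraries left out, changing sign without LAC replicate 2 (0.0284) and LAC replicate 1 (-0.0495); the cause was not tested. Equal totals moved the median of all genes to 0.11 in ACT vs QS and 0.10 in KO vs ACT. Acacb and Dgat1 had about 5 reads each in QS replicate 3, and why they were low there was not tested.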
